A study of Mus musculus with 143 samples.

Results

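Huntingtin lowering in the striatum of zQ175 mice was examined after a dose given early, by comparing 8 animals that received HTT-10150 with 8 that received NTC. HTT-10150 is a small interfering RNA directed at Htt, and NTC is its control, one with no intended target. The 16 libraries were taken from 143 by their sample group labels, 2[4]6_zQ175_HTT-10150_STR and 2[4]6_zQ175_NTC_STR. In the name 2[4]6, the animals were treated at 2 months and killed at 6 months of age. Each group held 4 females and 4 males. All 16 animals carried the zQ175 knock-in allele and had been given a small interfering RNA, so neither group was untreated. The labels give no dose, route, chemistry or zygosity, and they name no separate litters or batches. The p-values below therefore measure the spread between libraries. The main test drew that spread from all 48 libraries of 2[4]6, and tests between strategies from all 143. Permutation tests used only the libraries compared.

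Beside them stand the other groups of 2[4]6, which were untreated zQ175 mice and wild-type mice that were untreated, given NTC or given HTT-10150, with 8 animals in each. Also used were zQ175 mice given HTT-10150 or NTC at 6 months and killed at 10 months (6[4]10), and zQ175 mice given either at 2 and again at 6 months and killed at 10 months (2+6[8]10), again with 8 in each group. Polyadenylated RNA of the corpus striatum was sequenced. Total counts in the 16 libraries ran from 14448229 to 26474378 with a median of 18897707.

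zQ175 mice carry an expanded CAG repeat in their own Htt gene and serve as a model of Huntington's disease, in which a lengthened glutamine tract in huntingtin damages the striatum most. A small interfering RNA is loaded into an Argonaute protein, and the loaded complex cuts messenger RNAs that match it. Most striatal neurons are medium spiny neurons. Those of the direct pathway carry the dopamine receptor Drd1 and the peptides dynorphin and substance P, those of the indirect pathway carry Drd2, the adenosine receptor Adora2a and enkephalin, and their identity genes lose expression in Huntington's disease and in its mouse models. The Htt values below come from 1 entry that does not separate alleles, so wild-type and expanded transcripts cannot be told apart in them. Another entry that carries the identifier of Htt is described separately and is not part of these values. In whole tissue, fewer cells of a type and less RNA per cell cannot be told apart.

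A library of the treated group, HTT-10150 female replicate 4, stood apart from the other 15. Its summed level of 39 medium spiny neuron genes was 12180 CPM (a gene's count relative to the library's total, scaled between libraries by TMM), where the other 7 treated libraries held 15750 to 17660 and the NTC libraries 15300 to 17670. Its summed level of 14 choroid plexus and ependymal markers, genes of the tissue lining the ventricles, was 4246 CPM. The same sum was 1003 in HTT-10150 female replicate 1, 1422 in NTC male replicate 3 and 319.6 in NTC male replicate 4, and 83.55 to 132.3 in the remaining libraries. Its meningeal and fibroblast markers summed to 234.4 CPM against 30.91 to 76.22 elsewhere in the 16. Where leaving it out turned a sign or moved a list's median by over 1.5 times, the value without it is given too.

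**Figure D1:**
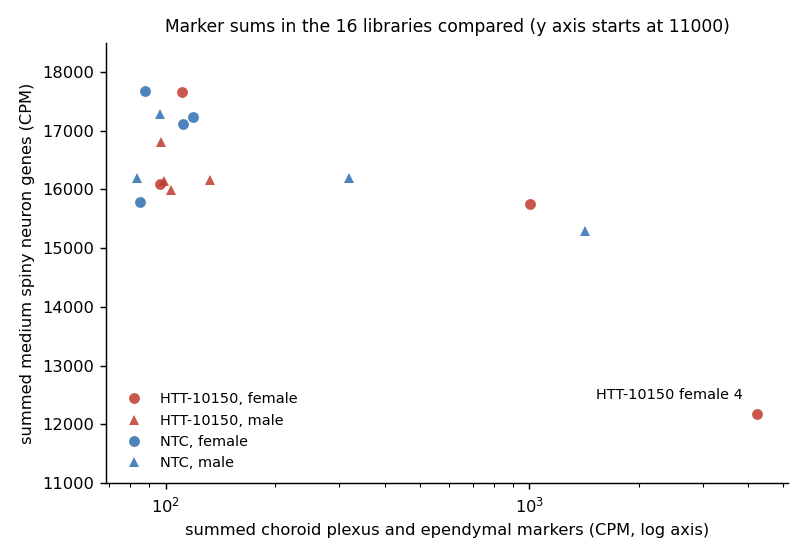
Each point is a library of zQ175 2[4]6: the x axis (log scale) is the summed level of 14 choroid plexus and ependymal markers and the y axis the summed level of 39 medium spiny neuron genes, both in TMM-scaled CPM. HTT-10150 female replicate 4 lies at 4246 and 12180, below and to the right of the other 15 libraries.

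Htt, the targeted gene (ENSMUSG00000029104, chromosome 5, 34761740 to 34912534 on GRCm38), stood at the same level with HTT-10150 as with NTC. The lowest, median and highest animals were at 111.3, 126.7 and 137.8 CPM with HTT-10150 and at 111.3, 126.2 and 147.1 with NTC. The groups overlapped over nearly their whole range, with the lowest animal of each at the same value. The mean was 126.5 ± 9.4 (SD, n = 8) with HTT-10150, 127.1 ± 10.7 with NTC and 126.7 ± 7.3 in untreated zQ175 mice. The log2 fold change was -0.008 ± 0.051 (SE) by edgeR's quasi-likelihood test (adjusted p = 0.993, n = 8 per group), and an exact two-sided permutation test of the log2 levels gave p = 0.921, where 8 against 8 animals allow a p as small as 0.000155. Without HTT-10150 female replicate 4 the log2 fold change of Htt was 0.016 ± 0.051, so its sign turned. With that library kept, the 95% interval of the fold change, -7.4% to 6.8%, does not reach the estimate of -16.2% in wild type. Nor does it reach those of -19.6% and -22.0% in zQ175 mice in 6[4]10 and 2+6[8]10. These estimates are given next with their own intervals, and only that of 2+6[8]10 passed over all genes. In females Htt was at -0.076 ± 0.073 and in males at 0.062 ± 0.073, a difference of -0.14 ± 0.10 (adjusted p = 0.953, edgeR).

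The wild-type animals of the same strategy held 127.9 ± 13.4 CPM with HTT-10150 and 152.7 ± 4.4 with NTC (n = 8 each). All 8 wild-type animals given HTT-10150, at 102.6 to 145.4, were below the lowest NTC animal at 146.2. Their log2 fold change was -0.26 ± 0.05, a change of -16.2% (95% interval -22.0% to -10.1%, adjusted p = 0.0567 over all genes, edgeR). Tested directly, the effect in zQ175 minus that in wild type was 0.25 ± 0.07 for Htt (unadjusted p = 0.00122), which did not pass adjustment over all genes (adjusted p = 1). In zQ175 mice killed at 10 months, Htt was at 105.1 ± 10.7 against 130.8 ± 10.7 in 6[4]10. The log2 fold change there was -0.315 ± 0.084 (95% interval -28.6% to -9.6%), which did not pass (adjusted p = 0.602, edgeR). In 2+6[8]10 Htt was at 107.4 ± 12 against 137.5 ± 5.3. That log2 fold change was -0.358 ± 0.058 (95% interval -28.0% to -15.4%), which passed (adjusted p = 0.000346, edgeR). The effect in 2[4]6 minus that in 6[4]10 was 0.31 ± 0.10 (unadjusted p = 0.00166, adjusted p = 0.603) and minus that in 2+6[8]10 was 0.35 ± 0.10 (unadjusted p = 0.000339, adjusted p = 0.088). These differences between strategies compare animals of different ages, since 2[4]6 animals were killed at 6 months.

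**Figure D2:**
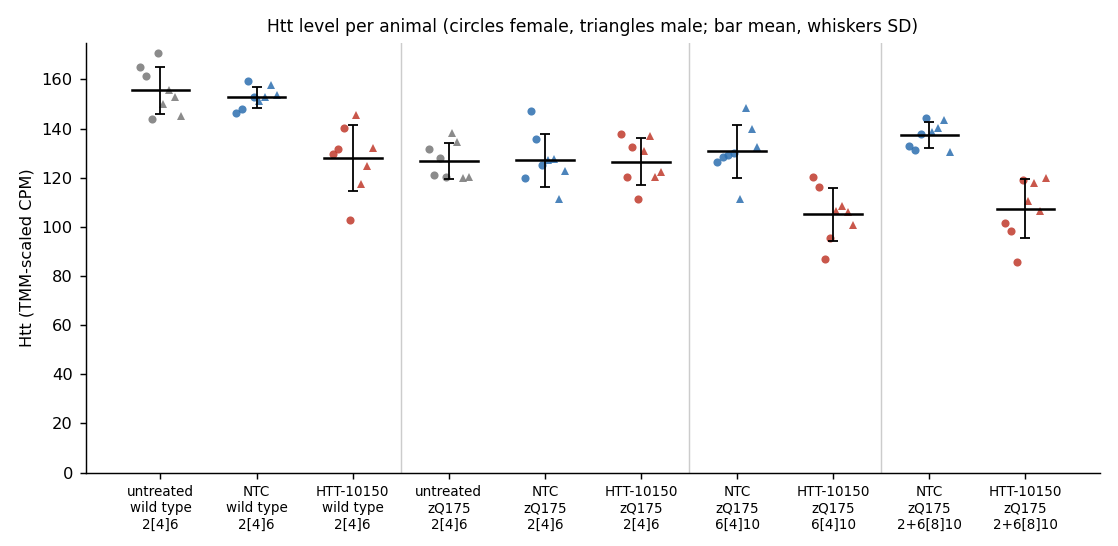
Htt in TMM-scaled CPM (y axis, from 0) for each animal of 10 groups, labelled by treatment, genotype and strategy, with circles for females, triangles for males, a bar at the mean and whiskers of 1 SD. The zQ175 2[4]6 groups have means of 126.7, 127.1 and 126.5, while the HTT-10150 mean lies below the NTC mean in the other pairs; levels were scaled within each strategy.

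The table also holds an entry that carries the identifier of Htt with the suffix HD, whose sequence the sources used here do not give. It was counted in zQ175 libraries, with summed expected counts of 13.1 to 23.5 in the 9 zQ175 groups, and it was at 0 in 8 of 9 wild-type groups and at 0.1 in the remaining one. In zQ175 2[4]6 it summed to 16.2 over the 8 HTT-10150 libraries (0.0 to 4.4 each, median 1.61) and to 21.2 over the 8 NTC libraries (1.1 to 4.4 each, median 2.62). The 8 untreated zQ175 libraries summed to 18.5. With totals rounded and set against the libraries' depth, the HTT-10150 to NTC ratio was 0.78 with an exact 95% interval of 0.38 to 1.57, which covers counting error only, and the exact permutation p was 0.232. A difference of the size seen for Htt in wild type was not detectable from so few counts.

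The comparison asks what the early dose changed in the striatum of zQ175 mice 4 months later. Of 15716 genes tested, 0 passed an adjusted p of 0.05 by edgeR (0% called), and 0 passed by DESeq2 or by limma with sample weights. At an unadjusted p under 0.05 there were 821 genes by edgeR, which is 5.22% of those tested, 799 by DESeq2 and 964 by limma. The 821 divided into 493 higher (3.14%) and 328 lower (2.09%) with HTT-10150. The smallest adjusted p was 0.26, the median absolute log2 fold change was 0.048 and the median SE 0.064. For 10315 genes (65.6%) the whole 95% interval lay within a log2 change of 0.25 either way, and for 13465 (85.7%) within 0.5. Only 2 genes had groups that did not overlap (0.0127%).

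These 2 genes, which fall outside the rule for naming genes and were chosen after their values were seen, were Adamts16 and Il2rg. Adamts16, a secreted metalloprotease (chromosome 13, 70727802 to 70841811), was at 2.87, 3.34 and 4.45 CPM (lowest, median, highest) with HTT-10150 and at 2.23, 2.48 and 2.82 with NTC. Its log2 fold change was 0.46 ± 0.13 (adjusted p = 0.488, edgeR). Il2rg, the common chain of several interleukin receptors (chromosome X, 101264378 to 101268255), was at 0.462, 0.574 and 0.683 CPM with HTT-10150 and at 0.704, 1.003 and 1.256 with NTC. Its log2 fold change was -0.76 ± 0.17 (adjusted p = 0.26). Neither passed the test over all genes.

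Among genes above a mean log2 CPM of 1, the 10 with the smallest p on the side higher with HTT-10150 mostly had long transcripts, and none passed. Pdcd11, a factor of ribosomal RNA processing (chromosome 19, 47090768 to 47131865), was at 26.7, 28.7 and 31.7 CPM with HTT-10150 and at 24.4, 25.7 and 27.2 with NTC. The groups overlapped only between 26.7 and 27.2. Its log2 fold change was 0.18 ± 0.04 (adjusted p = 0.26, edgeR). Macf1, which links actin to microtubules (chromosome 4, 123349633 to 123684360), was at 386, 435 and 469 CPM with HTT-10150 and at 309, 376 and 417 with NTC. All but 2 of its treated animals lay above the highest NTC animal, and its log2 fold change was 0.22 ± 0.05 (adjusted p = 0.26). Mdn1, an ATPase of ribosome assembly, was at 64.8, 78.3 and 85.6 CPM against 51.4, 64.2 and 71.9, a log2 fold change of 0.29 ± 0.07 (adjusted p = 0.377). Its groups overlapped as well.

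Kmt2d, a histone H3 lysine 4 methyltransferase (chromosome 15, 98831669 to 98871204), was at 189.2, 197.0 and 248.96 CPM with HTT-10150 and at 153.1, 177.6 and 190.0 with NTC, a log2 fold change of 0.213 ± 0.055 (adjusted p = 0.377). The highest value belonged to HTT-10150 female replicate 4, and without that library the log2 fold change was 0.16 ± 0.05 (adjusted p = 0.859). Among the other 6, the ubiquitin ligase genes Huwe1 and Ubr4 were at 0.16 ± 0.04 and 0.18 ± 0.05, and the cytoskeletal linker gene Dst at 0.19 ± 0.05. Apol8 was at 0.34 ± 0.08, and Igsf9b, an adhesion protein of inhibitory synapses, at 0.47 ± 0.12. A gene listed only by its identifier, ENSMUSG00000003178, was at 0.285 ± 0.074. Their adjusted p-values were 0.26 to 0.377.

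Among genes lower with HTT-10150 and with a mean log2 CPM over 1, a limit that leaves out Il2rg, the smallest p belonged to Acta2, the smooth muscle actin gene of arterial walls (chromosome 19, 34241090 to 34255590). It was at 4.40, 6.84 and 8.69 CPM with HTT-10150 and at 7.65, 9.07 and 9.83 with NTC. Of the 8 treated animals, 6 lay below the lowest NTC animal. The log2 fold change was -0.415 ± 0.10 (adjusted p = 0.274, edgeR), and untreated zQ175 animals, at 7.51 ± 1.10, lay between the groups. The smooth muscle genes Tagln and Myl9 stood beside it, at log2 fold changes of -0.40 ± 0.13 and -0.23 ± 0.07 (adjusted p = 0.728 for each). Tagln was at 4.15, 5.92 and 6.70 CPM against 6.11, 7.15 and 8.79 with NTC, and those groups overlapped between 6.11 and 6.70.

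Cited2, a transcriptional co-regulator (chromosome 10, 17723218 to 17725674), was at 42.9, 48.9 and 51.8 CPM with HTT-10150 and at 45.96, 54.87 and 57.81 with NTC, a log2 fold change of -0.16 ± 0.05 (adjusted p = 0.531). The NTC value of 45.96 was 1 animal, female replicate 1, and the next NTC animal was at 53.01, above every treated one. The remaining 6 genes ran from -0.14 ± 0.04 for the histone chaperone gene Anp32b to -0.535 ± 0.170 for Gm12758. Between them were the membrane protein genes Prom1 (-0.21 ± 0.06), Adgrf5 (-0.19 ± 0.06) and Tmem144 (-0.25 ± 0.07), and Gbp2, an interferon-induced GTPase, at -0.45 ± 0.13. Their adjusted p-values were 0.394 to 0.728, so none passed.

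**Figure D3:**
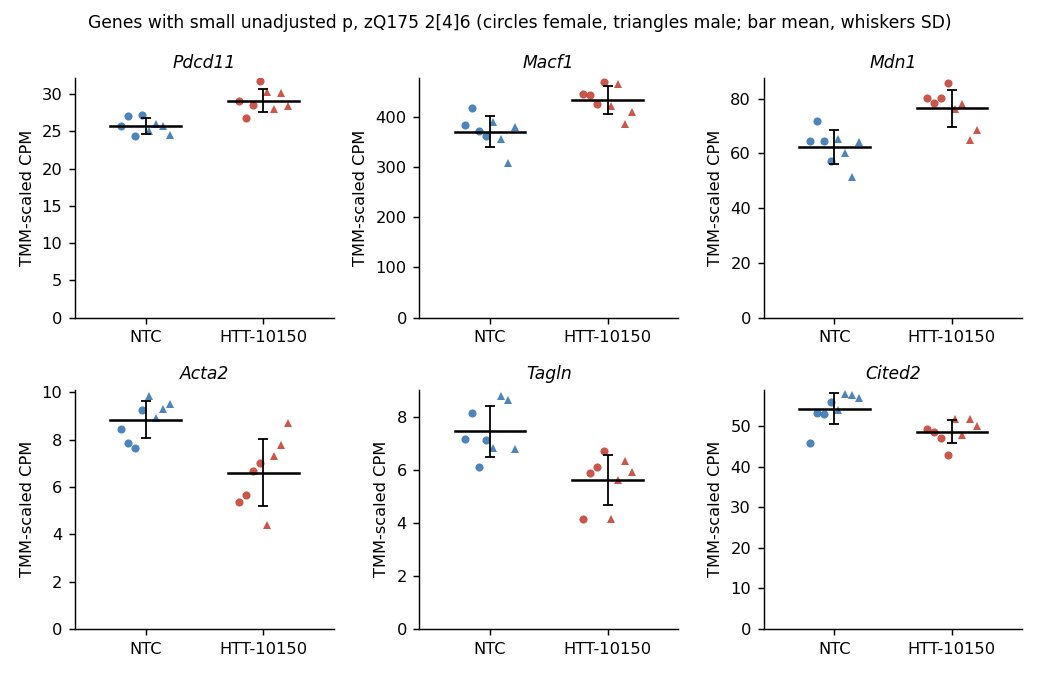
TMM-scaled CPM (y axes, from 0) of 6 genes in the 8 NTC and 8 HTT-10150 libraries of zQ175 2[4]6, with circles for females, triangles for males, a bar at the mean and whiskers of 1 SD. Pdcd11, Macf1 and Mdn1 were higher and Acta2, Tagln and Cited2 lower with HTT-10150, and in each panel the groups overlap.

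Medium spiny neuron genes, most of which are lower in zQ175 than in wild type, did not stand closer to the wild-type level with HTT-10150. In untreated animals of 2[4]6, where 32.6% of all genes passed, 36 of 39 members of this list fell and 0 rose in zQ175 (median log2 fold change -0.72). With HTT-10150 against NTC, 0 of 39 passed, 5 were higher and 34 lower, and the median was -0.070, beside 48.8% higher and a median of -0.002 over all genes. Without HTT-10150 female replicate 4, the library low in these genes, 14 were higher and 25 lower with a median of -0.009, beside 47.2% higher and a median of -0.005 over all genes.

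Penk, which encodes the enkephalin precursor (chromosome 4, 4133531 to 4138819), was at 318, 499 and 536 CPM with HTT-10150 and at 480, 505 and 555 with NTC. Apart from the 318 of female replicate 4, the groups overlapped, with the next treated animal at 472. The log2 fold change was -0.096 ± 0.070 (adjusted p = 0.925, edgeR) and -0.028 ± 0.057 without that library, where untreated zQ175 stood -1.29 below wild type. Its 95% interval ended at 0.046, a small part of that distance. Pdyn, the dynorphin precursor gene, was at 52.0, 107.8 and 117.3 CPM with HTT-10150 and at 99.05, 105.6 and 124.8 with NTC. The low value was again female replicate 4, and the log2 fold change went from -0.092 ± 0.097 with it to 0.005 ± 0.070 without it.

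Drd1, the dopamine receptor gene of the direct pathway, was at 106.6, 169.6 and 181.9 CPM against 145.5, 171.4 and 190.8. Its log2 fold change was -0.072 ± 0.066 with female replicate 4 and 0 ± 0.049 without it. Pde10a, the phosphodiesterase gene of these neurons, was at -0.054 ± 0.067 and Tac1, the substance P precursor gene, at -0.059 ± 0.077, and without that library they were at -0.001 ± 0.060 and 0.011 ± 0.063. The indirect pathway receptor genes Drd2 and Adora2a were at -0.099 ± 0.078 and -0.070 ± 0.079, and Ppp1r1b, which encodes DARPP-32, at -0.11 ± 0.08. The adjusted p of these genes was 0.925 to 0.952 in the 16 libraries. At -0.070, -0.026 and -0.079 without that library, Drd2, Adora2a and Ppp1r1b stayed below 0.

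Of the 36 medium spiny neuron genes that fell in untreated zQ175, the 95% interval of the HTT-10150 effect ended short of a 50% return to the wild-type level for all 36, and short of a 25% return for 32 (30 without female replicate 4). The largest positive values in the list were those of the genes with the largest genotype difference. Gpx6, a glutathione peroxidase gene, was at 0.41 ± 0.27 where untreated zQ175 stood -3.71 below wild type. Ryr1, a calcium release channel gene, was at 0.17 ± 0.08 where the genotype difference was -1.97. Ryr1 was the member higher at an unadjusted p under 0.05, and Gpr6, an orphan receptor gene of the indirect pathway at -0.17 ± 0.08, was the member lower. Without female replicate 4, 2 members were higher and 0 lower at that p, beside 2.51% and 2.48% of all genes. Gpx6, Ryr1 and Gpr6 were then at 0.59, 0.20 and -0.14. The direct pathway list had 2 of 13 higher (median -0.019), and 7 of 13 without female replicate 4 (median 0.005). The indirect pathway list had 2 of 11 higher (median -0.038), and 3 of 11 without it (median -0.026). In both lists 0 passed.

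**Figure D4:**
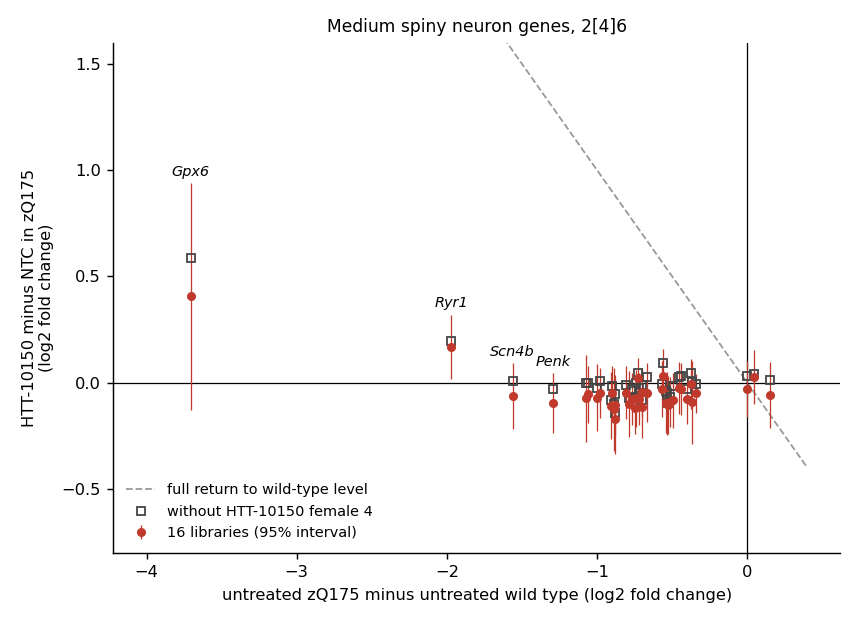
For 39 medium spiny neuron genes, the x axis is the log2 fold change of untreated zQ175 against untreated wild type and the y axis that of HTT-10150 against NTC in zQ175 2[4]6 (filled circles, 95% intervals; open squares, without HTT-10150 female replicate 4). Points lie near 0 on the y axis, far from the dashed line of full return to wild type, with Gpx6 at 0.41 and Ryr1 at 0.17 as the highest.

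The same was described over all genes that differed between untreated zQ175 and untreated wild-type animals, which are in neither group compared. The 2412 genes higher in zQ175 had 1391 higher and 1021 lower with HTT-10150 (median 0.012), and the 2709 genes lower in zQ175, Htt left out, had 930 higher and 1779 lower (median -0.025), beside 7675 higher and 8041 lower of 15716 genes in all. The medians thus lay on the side of the zQ175 difference, not of wild type. Without HTT-10150 female replicate 4 they were 0.010 and -0.019. A score per animal, the mean log2 CPM of the higher genes minus that of the lower genes, was -0.546 ± 0.049 with HTT-10150, -0.587 ± 0.025 with NTC and -0.540 ± 0.034 in untreated zQ175 (n = 8 each). Wild-type animals were at -1.17 ± 0.07 with NTC and -1.19 ± 0.06 untreated. The score genes were chosen for their difference between the untreated groups, a choice that by itself sets the untreated scores further apart. No conclusion is drawn from the untreated scores beside those of treated animals. The HTT-10150 animals, at -0.633 to -0.478, and the NTC animals, at -0.618 to -0.542, overlapped.

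Markers of other cells gave 0 called members in each list. Of 17 endothelial and mural genes, which mark the lining and the muscle of vessels, 15 were lower with HTT-10150 and 2 higher (median -0.097), and without HTT-10150 female replicate 4 all 17 were lower (median -0.12). At an unadjusted p under 0.05 were 5 of them, Acta2, Tagln, Tek, Abcb1a and Pecam1, all lower, beside 2.09% of all genes lower at that p. With the 3 libraries over 1000 CPM of choroid plexus and ependymal markers left out, 3 were lower at that p, beside 1.51% of all genes. The summed level of the 17 genes was 465.3 to 584.7 CPM with HTT-10150 and 532.1 to 576.5 with NTC, so the sums overlapped. Of 18 astrocyte genes 11 were higher (median 0.020), and of 16 homeostatic microglia genes 9 (median 0.012). Gfap, the intermediate filament gene of reactive astrocytes, was at 82.6, 94.8 and 138.0 CPM against 87.5, 99.3 and 180.1 (-0.14 ± 0.13), and Aif1, a microglia gene, at 3.51 ± 0.39 against 3.11 ± 0.52 (0.17 ± 0.11). Neither passed (adjusted p = 0.937 and 0.925, edgeR).

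Of 16 oligodendrocyte genes 14 were lower (median -0.033), and of 9 oligodendrocyte precursor genes 6 were higher (median 0.041). Without HTT-10150 female replicate 4 the precursor list had 4 of 9 higher (median -0.001). Striatal interneuron genes had 12 of 19 higher (median 0.018, and 0.047 without that library), with Chat, the acetylcholine synthesis gene of cholinergic interneurons, at 26.2 ± 1.9 against 23.3 ± 1.0 CPM (0.17 ± 0.06, adjusted p = 0.797). Cortical and thalamic neuron genes, not all of which need come from neighbouring tissue, had 9 of 15 higher with all libraries (median 0.036). Without HTT-10150 female replicate 4, 5 of 15 were higher (median -0.094). The choroid plexus and ependymal list had a median of 0.91 over 14 genes with all libraries and -0.28 without HTT-10150 female replicate 4. The 10 meningeal genes went from 0.13 to -0.052. For the precursor, cortical and thalamic, choroid plexus and meningeal lists the sign of the median turned on this 1 library. Blood genes had 6 of 6 lower (median -0.41), of which 5 are globin or red cell synthesis genes. NTC male replicate 1 held 773.7 CPM of them, where the other NTC libraries held 171.1 to 324.4 and the treated libraries 173.8 to 329.5.

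Of 21 interferon-response genes, which nucleic acid sensors can induce, 0 passed. In the 16 libraries 19 were lower and 2 higher (median -0.18), with 3 lower at an unadjusted p under 0.05, beside 2.09% of all genes. Without HTT-10150 female replicate 4, 21 were lower (median -0.35), with 13 lower at an unadjusted p under 0.05, where 2.48% of all genes were lower at that p. With the 3 libraries rich in choroid plexus markers left out, 21 were lower (median -0.28). Of these, 9 were lower at that p, beside 1.51% of all genes. NTC female replicate 3, the highest of the 16 for the interferon sum, stayed in both settings. The summed level was 197.1 CPM in HTT-10150 female replicate 4 and 108.6 to 121.8 in the other 7 treated ones, while NTC libraries ran from 113.4 to 160 with female replicate 3 at 213.8. Ifitm3, an antiviral membrane protein gene, was at 7.12 ± 1.64 against 9.06 ± 2.15 CPM (-0.345 ± 0.118, adjusted p = 0.797). The nucleic acid sensor genes themselves had 7 of 13 higher and a median of 0.007, and without that library, the highest for their sum at 89.11 CPM, 3 of 13 higher and a median of -0.070. NTC against untreated zQ175, which shares the NTC animals with the main comparison, called 0% of genes by edgeR (785 at an unadjusted p under 0.05).

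Genes of the small RNA machinery, through which a small interfering RNA acts, had 13 of 16 higher (median 0.043) and 0 called. At an unadjusted p under 0.05 were Tnrc6b (0.18 ± 0.06) and Tnrc6c (0.090 ± 0.044), scaffold genes of the silencing complex, Ago3 (0.18 ± 0.08) and Dicer1 (0.079 ± 0.032). These were 4 of the 16, all higher, where 3.14% of all genes were higher at that p. Ago2, the Argonaute gene whose protein cuts its target, was at 113.1 ± 4.9 against 107.2 ± 8.5 CPM (0.077 ± 0.045, adjusted p = 0.925). With each library's slopes on transcript length and GC content as covariates, the list's median was 0.019, and with the 3 libraries rich in choroid plexus markers left out, 11 of 16 were higher and 0 reached an unadjusted p under 0.05.

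Immediate early genes, induced by neuronal activity, had 19 of 20 lower (median -0.14, and 17 of 20 with a median of -0.093 without HTT-10150 female replicate 4), with SEs such as 0.26 for Arc (-0.20) and 0.37 for Fos (-0.19). Of 21 respiratory chain genes 18 were lower (median -0.039), and of 17 proteasome and autophagy genes 15 (median -0.035), among them Sqstm1, an autophagy receptor gene, at -0.075 ± 0.035. With the covariates those medians were 0.006 and -0.011. In the 16 libraries medians lay between -0.064 and 0.009 for the lists of mismatch repair and repeat instability (0.009), huntingtin partners (-0.010), clustered protocadherins (-0.002), developmental transcription factors (-0.009), activated microglia (-0.007), heat shock proteins (-0.040), cholesterol synthesis (-0.035), the integrated stress response (-0.032), p53 targets (-0.064) and reactive astrocytes (-0.062). Without HTT-10150 female replicate 4 that range did not hold: developmental transcription factors were at -0.135 with 9 of 11 lower, and reactive astrocytes at -0.109. Activated microglia were then at -0.037, cholesterol synthesis at -0.014, mismatch repair at 0.004, protocadherins at -0.001, and huntingtin partners at 0.008 with 13 of 22 higher. Across the 29 lists, 0 of 464 memberships tested passed.

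Values ran with transcript length. Across 15610 genes with an annotated transcript, Spearman's rho between the log2 fold change and the length of the longest transcript was 0.234, a description across genes, which are not independent replicates. Genes of 1 to 2 kb had a median of -0.021 and 37.7% of them were higher with HTT-10150, against 0.025 and 69.3% at 6 to 8 kb, 0.052 and 84.3% at 8 to 10 kb, and 0.082 and 89.8% over 10 kb. Of the genes over 10 kb, 97 were higher and 1 lower at an unadjusted p under 0.05. Over all genes tested, 493 were higher (3.14%) and 328 lower (2.09%) at that p. With the 3 libraries that held over 1000 CPM of choroid plexus and ependymal markers left out, the median over 10 kb was 0.053 and rho 0.146. Over all genes, 219 were then higher and 239 lower at an unadjusted p under 0.05. The matching count for genes over 10 kb is not given for that fit.

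Each library's slope of gene levels on log2 length, in log2 units per SD of length, was -0.0113 at the lowest, 0.0148 at the median and 0.0349 at the highest with HTT-10150, and -0.0440, -0.0062 and 0.0239 with NTC. The groups overlapped, and the difference of 0.0184 had an exact two-sided permutation p of 0.0441 (8 against 8). The highest treated slope was that of HTT-10150 female replicate 4 and the lowest NTC slope that of NTC male replicate 3, both rich in choroid plexus markers. Without female replicate 4 the difference was 0.0153 (exact permutation p = 0.09), without NTC male replicate 3 it was 0.0130 (p = 0.0876, exact), and without both it was 0.0098 (p = 0.163, exact). Leaving out each library in turn took p past 0.05 for 10 of 16, with the difference at 0.0130 to 0.0227. The slope on GC content differed by -0.0076 (exact permutation p = 0.826). Whether RNA quality moved with the slope was not tested, since the labels give no measure of it. In wild type the same comparison had a rho of 0.118 and a median of 0.028 over 10 kb, and in zQ175 the rho was 0.013 in 6[4]10 and -0.385 in 2+6[8]10.

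Htt has a longest transcript of 13215 bases, and its value of -0.008 lay below those of all but 36 of the genes over 10 kb. Among those with a mean log2 CPM over 5, whose median was 0.076, 12 lay below Htt. With the slopes on length and GC content as covariates, Htt was at -0.066 ± 0.042 (95% interval -0.15 to 0.019, adjusted p = 0.995, edgeR), and 23 genes over 10 kb lay below it, where their median was 0.026. In wild type Htt was then at -0.28 ± 0.04 (adjusted p = 0.000227), and the difference between the genotypes was 0.22 ± 0.06 (unadjusted p = 0.00047, adjusted p = 0.924). The same covariates left 0 genes called in zQ175 2[4]6, with 667 at an unadjusted p under 0.05.

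**Figure D5:**
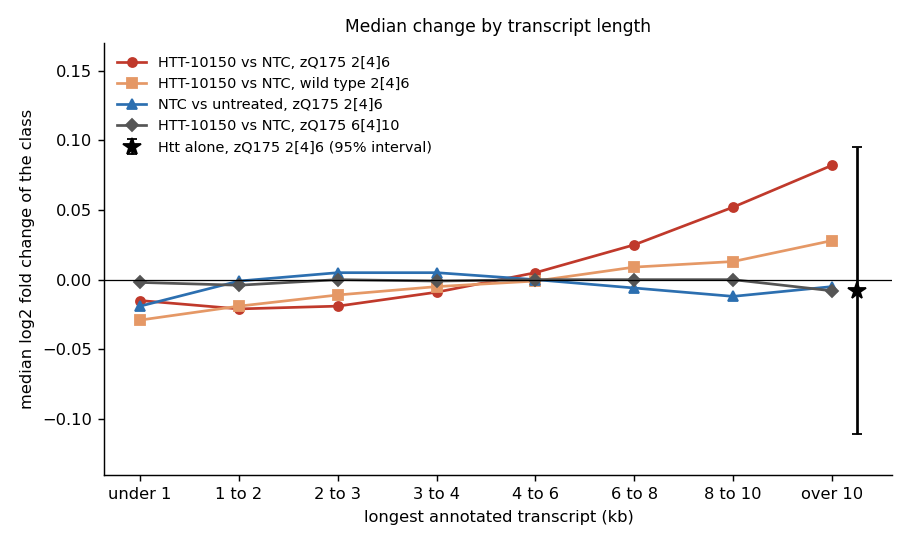
Median log2 fold change (y axis) of the genes in 8 classes of longest annotated transcript in kb (x axis) for 4 comparisons, with Htt in zQ175 2[4]6 as a star with its 95% interval. The zQ175 2[4]6 line climbs from -0.015 under 1 kb to 0.082 over 10 kb, while Htt lies at -0.008 and the NTC against untreated line at -0.005 over 10 kb.

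The interaction tests asked where the early dose acted differently from the same agent elsewhere. Between zQ175 and wild type in 2[4]6, 0% of genes passed (0 by edgeR with 398 at an unadjusted p under 0.05, and 0 by DESeq2). Between 2[4]6 and 6[4]10 in zQ175, 0% of 16295 genes passed (814 at an unadjusted p under 0.05, and 0 by DESeq2). Between 2[4]6 and 2+6[8]10, 5 genes passed (0.0307%). Dgkh, a diacylglycerol kinase gene, and Arfgef3, which encodes a guanine nucleotide exchange factor-like protein, had higher effects in 2[4]6, by 0.94 ± 0.19 and 0.63 ± 0.14 (adjusted p = 0.0204 and 0.0484). The smooth muscle genes Acta2, Tagln and Myl9 had lower effects in 2[4]6, by -0.93 ± 0.16, -0.81 ± 0.17 and -0.54 ± 0.12 (adjusted p = 0.00165, 0.0204 and 0.0286). DESeq2 called 56.

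In 2[4]6 itself Dgkh was at 17.4, 23.7 and 24.6 CPM with HTT-10150 and at 11.4, 18.1 and 26.7 with NTC, overlapping, and at a log2 fold change of 0.33 ± 0.10 (adjusted p = 0.728). In 2+6[8]10 it fell by 0.61 ± 0.11 on the log2 scale (adjusted p = 0.00145). Arfgef3 was at 0.21 ± 0.07 and -0.43 ± 0.08 in the same order, and Acta2 at -0.415 ± 0.10 and 0.51 ± 0.10. For these 5 genes the effects in zQ175 had opposite signs in 2[4]6 and 2+6[8]10, and those in 2[4]6 did not pass by themselves. The transcripts of Dgkh (15257 bases) and Arfgef3 (14579) are long and those of Acta2 (2035), Tagln (1595) and Myl9 (1128) short. The part of transcript length in these differences was not tested.

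The 490 genes called after 2 doses in zQ175 (3.16% of 15506 tested there) came from animals that are in neither group compared, and 489 were measured here. The 170 that rose after 2 doses had 89 higher and 81 lower in 2[4]6 (median 0.008). Of the 319 that fell, Htt among them, 74% were higher (median 0.028), on the side opposite to the change after 2 doses, and their longest transcripts had a median of 7249.5 bases against 3347.5 for all genes. Without HTT-10150 female replicate 4 the medians were 0.013 and 0.037. With the slopes on length and GC content as covariates, 77.6% of the 170 and 44.2% of the 319 were higher, beside 50.1% of all genes. Between females and males, 0% of genes differed in the effect of HTT-10150 in zQ175 2[4]6 (0 by edgeR with 868 at an unadjusted p under 0.05, and 0 by DESeq2).

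Against untreated zQ175 in place of NTC, 2 genes passed (0.0127%), both higher with HTT-10150. Rreb1, a zinc finger transcription factor gene, was at 46.7 ± 6.3 CPM with HTT-10150, 33.8 ± 3.0 untreated and 39.9 ± 6.3 with NTC, a log2 fold change of 0.46 ± 0.08 against untreated (adjusted p = 0.00267, edgeR) and 0.23 against NTC (adjusted p = 0.728). Kmt2d was at 203.8 ± 19.5 CPM with HTT-10150 and 165.9 ± 13.6 untreated, a log2 fold change of 0.30 ± 0.06 against untreated (adjusted p = 0.0159). In both genes the NTC mean lay between the untreated and the HTT-10150 mean.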

How the data were processed

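Levels came from a deposited table of RSEM expected counts per gene against GRCm38, which the authors made, per the submitters' processing notes. The RSEM version, the aligner and the annotation were not stated in the sources used. Of 41135 entries, 7 that name no ordinary mouse gene (5.91e-06% of counts) were left out before scaling and testing. Expected counts were made whole by rounding, which 78.4% of nonzero values did not need. No libraries were identical.

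The test was edgeR 4.0.16 (R 4.3.3; quasi-likelihood F test, filterByExpr, TMM, sex as a term) over the 48 libraries of 2[4]6. Genes passed at a Benjamini-Hochberg adjusted p under 0.05. Differences between strategies used all 143 libraries. SEs are the fold change over the square root of F. The test was checked on simulated data. Permutation tests used all 12870 splits of 8 and 8. Positions and lengths are from GENCODE M21.

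Alternatives used DESeq2 1.42.0, limma 3.58.1, other scalings, filters, samples and covariates, and leaving out each library. The rule named Htt, the 10 genes with the smallest p in each direction with mean log2 CPM over 1, 12 fixed genes (Cst7 was not tested, being too low), the 3 most abundant members of each list and genes called between strategies. Not all are printed, and genes named outside the rule were chosen after their values were seen. Members and lists were chosen with earlier results of these data known.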

Additional observations from a re-analysis of the deposited data

Results flagged for a closer look

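In zQ175 2[4]6, single libraries lay far from the other 7 of their group (a gap larger than Dixon's limit for 8 values) in 19 of 130 groups of values checked. Chance gives about 1 in 20. HTT-10150 female replicate 4 accounted for most of them. It was low for Drd1 (106.6 CPM, next 147.9), Pde10a (661.5, next 836.6), Pdyn (51.97, next 103.4) and Penk (317.6, next 472.3), and for the summed medium spiny (12180, next 15750), direct pathway (882.6, next 1075) and indirect pathway (964.2, next 1233) lists. It was high for Kmt2d (248.96, next 211.4) and for the summed choroid plexus and ependymal (4246), meningeal (234.4), interferon (197.1) and nucleic acid sensor (89.11) lists.

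NTC male replicate 3 was high for the choroid plexus and ependymal (1422) and meningeal (76.22) sums, NTC male replicate 1 for the blood sum (773.7) and NTC female replicate 3 for the interferon sum (213.8). HTT-10150 male replicate 3 was high for the huntingtin partner sum (2574, next 2497), HTT-10150 male replicate 1 low for Dgkh (17.35, next 22.17) and NTC female replicate 1 low for Cited2 (45.96, next 53.01).

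For Htt, the HTT-10150 effect of zQ175 2[4]6 differed, at an unadjusted p, from that in wild type (0.248 on the log2 scale), in zQ175 6[4]10 (0.306) and in zQ175 2+6[8]10 (0.351), and none of these differences passed over all genes by edgeR. The differences from 2+6[8]10 that passed were those of Acta2 (-0.925), Tagln (-0.809), Myl9 (-0.544), Dgkh (0.941) and Arfgef3 (0.634).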

How the results depend on the processing

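Under 27 of 28 alternatives 0 genes passed, and leaving out each library in turn gave 0 to 0 throughout. With untreated zQ175 as the control 2 passed, one of them Kmt2d (0.297). Htt ran from -0.066 to 0.024 over the 28 alternatives and from -0.034 to 0.024 when each library was left out, with adjusted p of 0.945 or more. With the replicate number as a block 0 genes passed (1098 at an unadjusted p under 0.05) and Htt was at -0.006. Whether these numbers pair the samples was not settled. Of 8 same-numbered pairs, 3 correlated over 0.1 and 3 correlated best with their own number. In 7 of the 8 the library names also shared a number, whose meaning the labels do not give. With that number as a block 0 genes passed (1031 at an unadjusted p under 0.05). The 16 libraries without a block had 700 at that p. DESeq2 called 56 genes between 2[4]6 and 2+6[8]10, where edgeR called 5, and the cause was not tested. The score difference of 0.041 was 0.108 with signature genes over 1 on the log2 scale and 0.032 without HTT-10150 female replicate 4. That library also set the sign of Pdyn, which ran from -0.121 to 0.005 when each library was left out (0.005 without that one). The length slope difference of 0.0184 ran from 0.0130 to 0.0227 when each library was left out, with exact permutation p of 0.0101 to 0.09. It was 0.0098 without HTT-10150 female replicate 4 and NTC male replicate 3, and 0.0076 (exact permutation p = 0.279) without the 3 libraries rich in choroid plexus markers. Of 868 values of 31 named genes, 866 kept their direction or moved by under 1 SE, and their side of the threshold. Leaving out these libraries together, and any for the slope, was chosen after seeing the data. With 8 animals per group, changes in low genes were measured with wide intervals.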
